A study of Rattus norvegicus with 2 samples.

Results

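Notch1-positive smooth muscle cells of the rat carotid artery are described here. Of 8977 barcodes, 6658 were kept with at least 2000 UMIs (counted RNA molecules) and at most 20% of UMIs from mitochondrial genes, 1999 in the control library and 4659 in the case library. A kept cell was taken as a smooth muscle cell when at least 1% of its UMIs came from Acta2, Tagln, Myl9, Myh11, Cnn1 and Cald1, and less than 1% from Col1a1, Col3a1, Dcn and Lum. This gave 981 control and 2357 case cells. Notch1-positive cells were those with 2 or more Notch1 UMIs and fewer than 3 of Spp1, the gene of osteopontin. They numbered 239, with 78 in the control and 161 in the case library. The comparison cells were the 601 control and 1699 case smooth muscle cells without a Notch1 UMI, called Notch1-zero, and Notch1 itself was left out of all counts and totals.

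Both libraries came from the same 2 male Sprague-Dawley rats, whose age is given as 12 weeks. The control group was the untouched left carotid artery and the case group the right carotid artery, taken 28 days after balloon injury, which strips and stretches the wall and is followed by growth of a neointima. The arteries of the rats were pooled into 1 library per group, so no test between groups and no estimate of the spread between animals is possible. The control library held 24968329 UMIs and the case library 28232614, with medians of 5981 and 4778 per barcode. The libraries shared 21 barcodes, of which 1 was a member and 5 were Notch1-zero cells. The unit of level is CPM: a gene's UMIs were added up over a class of cells and divided by all UMIs of that class, times 1000000. Parentheses hold exact 95% intervals, which cover counting error only.

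Notch receptors are cut on contact with Jagged or Delta ligands of a neighbouring cell. The freed intracellular part enters the nucleus, joins the DNA-binding protein RBPJ (also called CSL) and switches on targets of the Hes and Hey families, which are repressors of transcription. In the arterial wall this pathway guides the formation of smooth muscle, where Notch3 is known as the main receptor, and Notch1 is best known from endothelium.

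The Notch1 level chose the members and is a description. Members held 272 Notch1 UMIs in the control library (236 CPM) and 421 in the case library (365 CPM). Among control members 35 had 2 Notch1 UMIs and 43 had 3 or more, up to 9 in a cell. Among case members these numbers were 103 and 58, with at most 8. Just outside the rule, with 1 Notch1 UMI and fewer than 3 of Spp1, lay 78 control and 330 case cells. On the other side of the Spp1 limit, 121 control and 67 case cells had 2 or more Notch1 UMIs and 3 or more of Spp1.

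The rule follows depth. Members had a median of 14935 UMIs per cell in the control and 6381 in the case library, while Notch1-zero cells had 11869 and 5416. Members were 7.95% (6.34 to 9.82) of control and 6.83% (5.85 to 7.93) of case smooth muscle cells. Whatever their Spp1, 20.3% of control and 9.67% of case smooth muscle cells had 2 or more Notch1 UMIs, at median depths of 12881 and 5617 UMIs. After thinning every cell to 2000 UMIs the shares were 1.83% (1.09 to 2.88) and 2.04% (1.51 to 2.69). The summed Notch1 level of all smooth muscle cells was 68.9 CPM in the control and 74.0 in the case library. Cells with the fibroblast genes above 1% and the smooth muscle genes below 1% (fibroblast-rule cells) held 28.6 and 51.5 CPM. Of these, 0.826% and 1.63% had 2 or more Notch1 UMIs after thinning, and 7.30% and 6.46% before it, at medians of 11385 and 5451 UMIs. Cells with endothelial markers held 203 and 156 CPM of Notch1, and cells with macrophage markers 205 and 277.

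The label was checked against its markers. Myh11, the smooth muscle myosin heavy chain, stood at 5055 CPM in control members and 4851 in Notch1-zero cells, and at 4727 and 5117 in the case library. It is a gene of the rule for both classes, so these levels are a description and no check. Tmem140, a transmembrane protein gene, was counted 52 times in control members (45.03 CPM) against 18.9 CPM in Notch1-zero cells, and 73 times in case members (63.3 CPM) against 23.4 CPM. Its log2 ratio was 1.25 (0.76 to 1.72) and 1.44 (1.03 to 1.82). It was 0.19 in the control library after thinning to 2000 UMIs, and ran from 0.77 to 3.01 in the case library over the alternatives. Only 10 of 78 control and 20 of 161 case members had 2 or more Tmem140 UMIs, counts too low to say in which share of the members the gene is expressed.

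Fibroblast markers, of which 4 limit the rule, summed to 3281 CPM in control members and 3253 in Notch1-zero cells, and to 3465 and 2973 in the case library. The 1 that the rule did not use, Pdgfra, had 0 UMIs in control and 6 in case members. Endothelial, macrophage and T-cell markers were nearly absent from control members. Of 7 endothelial markers 5 were at 0 there, of 8 macrophage markers 5 were at 0, and no T-cell marker was found, with sums of 3.46, 6.06 and 0 CPM. The pericyte list, which shares genes with smooth muscle, was at 341 CPM in control members and 347 in Notch1-zero cells, led by Abcc9. In case members the macrophage markers summed to 159 CPM against 11.0 in Notch1-zero cells, with C1qb as the most abundant, and endothelial markers to 36.4 against 4.99, led by Vwf. These UMIs came from few cells, as 6 case members had 2 or more macrophage-marker UMIs and 3 had 2 or more endothelial ones. Schwann markers were at 20.8 CPM in case members and 12.2 in Notch1-zero cells. Red blood cell markers went the other way, at 9.53 CPM in case members against 115 in Notch1-zero cells, of which 12 had 2 or more such UMIs. In the control library they were at 8.66 and 8.82 CPM.

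Hmox1, heme oxygenase 1, the inducible enzyme that breaks down heme and releases iron, was the gene furthest above Notch1-zero cells in control members. In case members it came after Apoe and Chac1. Of 1406 genes with at least 100 CPM on average in the control library, 123 (8.75%) were 1.5-fold or more higher in the members and 34 (2.42%) lower. In the case library 81 of 1305 (6.21%) were higher and 23 (1.76%) lower. Among 1186 genes that could be compared in both libraries, 35 (2.95%) were higher in both and 15 (1.26%) lower in both, and no gene was past 1.5-fold in opposite directions. The median log2 ratio over all genes was 0.02 in the control and 0.03 in the case library. TMM scaling, which takes most genes as unchanged, lowered every ratio by 0.14 in the control and 0.11 in the case library, and turned the split into 59 higher and 66 lower genes, and 53 and 50.

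**Figure D1:**
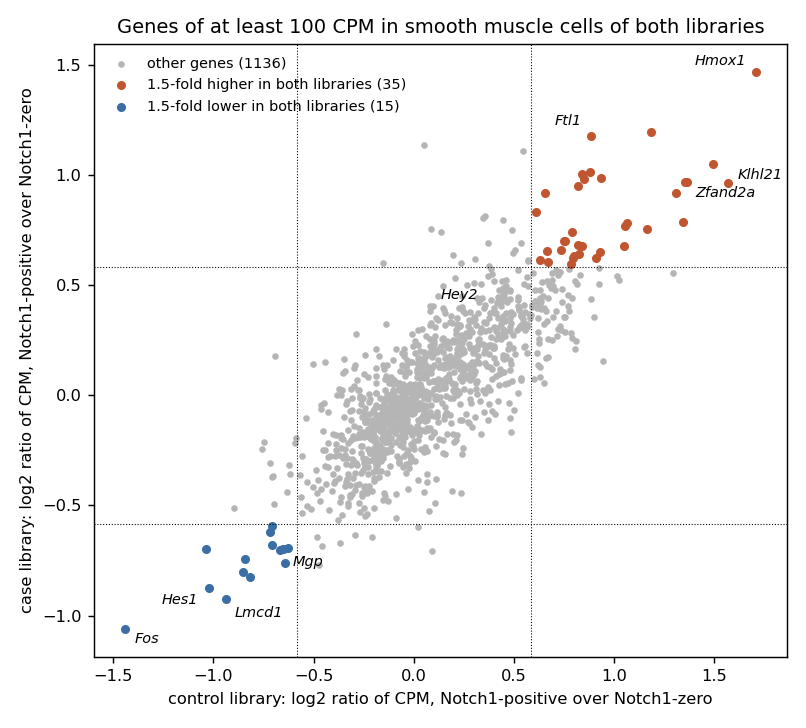
Log2 ratio of CPM between Notch1-positive and Notch1-zero smooth muscle cells in the control library (horizontal) and the case library (vertical), 1 point for each of the 1186 genes compared in both, with dotted lines at 1.5-fold. Hmox1 lies furthest up and right and Fos furthest down and left, the 35 and 15 coloured genes pass 1.5-fold in both libraries, and no point lies past 1.5-fold in opposite directions.

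Hmox1 (ENSRNOG00000014117) stood at 3747 CPM in control members on 4327 UMIs, against 1148 in Notch1-zero cells. In the case library it stood at 5159.9 CPM on 5955 UMIs, against 1863. The members were thus 3.26-fold higher in the control library, a log2 ratio of 1.71 (1.65 to 1.76), and 2.77-fold in the case library, with 1.47 (1.43 to 1.51). Over the 17 alternatives that recompute ratios the log2 ratio lay between 1.17 and 1.93 in the control library and between 1.07 and 1.75 in the case library.

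Genes that store iron or carry a response to oxidants stood with it. Ftl1, the ferritin light chain, was at 1295 against 701 CPM in control and 1197 against 529 in case cells. The near copy LOC100360087, which also carries the name Ftl1 in RefSeq, gave 1219 against 663 and 938 against 464, and reads may have been split between both. Fth1, the ferritin heavy chain, was at 6039.8 against 4431 CPM in control cells, within 1.5-fold, and at 5109.6 against 2941 in case cells, past it. Sqstm1, the autophagy receptor p62, was at 626 against 328 and at 712 against 359. Slc3a2, the heavy chain of the cystine and amino acid transporters, was at 353 against 197 and 324 against 161.

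From 21 antioxidant and iron genes, a list drawn up after these values had been seen, 8 reached 100 CPM in each library. All 8 lay above 0, and 4 in the control and 7 in the case library were past 1.5-fold, where 8.75% and 6.21% of all genes were higher. Their median log2 ratios were 0.68 and 1.00, against 0.02 and 0.03 over all genes. Txnrd1, thioredoxin reductase, had log2 ratios of 0.86 (0.58 to 1.13) and 1.02 (0.80 to 1.23). Gclc and Nqo1 lay under that limit in both libraries, as Txnrd1 did in the control library, Gclc at 140.3 against 58.2 and 128 against 62.7 CPM, and Nqo1 at 38.1 against 14.7 and 102 against 26.4 CPM. For all of these genes the member level lay above the Notch1-zero level in both libraries.

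The other genes higher in both libraries covered several roles. Klhl21, an adaptor of a ubiquitin ligase, was at 475 against 159.8 CPM in control and 387 against 198 in case cells. Zfand2a, a proteasome-associated protein induced by arsenite, was at 336 against 131 and 537 against 275. Zmiz1, a transcriptional coactivator described as a partner of Notch1, was at 541 against 212 and 715 against 365. Each of these stood 1.95-fold or more higher in both libraries. Vasn, a cell surface protein that binds TGF-beta, had log2 ratios of 1.49 (1.32 to 1.66) and 1.05 (0.87 to 1.22), and Mknk2, a kinase of the cap-binding factor eIF4E, had 1.18 and 1.20. Sesn2, a stress-induced regulator of growth signalling, had 1.31 and 0.92. Crebbp, a histone acetyltransferase, had 0.91 and 0.62, Brd1 had 0.93 and 0.65 and Ankrd11 had 0.82 and 0.68, and these 3 were within 1.5-fold in the case library under TMM scaling. Bmp2, a secreted ligand, reached 133 against 76.5 and 137 against 81.9 CPM.

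The amino acid and ER stress genes, also listed after the values were seen, had 3 of 9 members past 1.5-fold higher and 1 lower in the control library, and 5 of 11 higher and 0 lower in the case library. Over all genes 8.75% were higher and 2.42% lower in the control and 6.21% and 1.76% in the case library, and these shares also stand beside the next 2 lists. Under TMM scaling 1 of 9 was higher in the control library, Sesn2, as Herpud1 and Cebpb came within 1.5-fold. Chac1, which degrades glutathione, stood out in case cells with 185 CPM in members against 51.2. In control cells it was at 20.8 CPM in both classes. Nars, asparaginyl-tRNA synthetase, was at 168 against 115 and at 543 against 252 CPM. Of the p53 targets, a list likewise drawn up afterwards, 3 of 5 and 2 of 4 were past 1.5-fold higher and none lower, with Ccng1 at 204 against 98.6 and 235 against 146 CPM. Under TMM scaling these were 2 of 5 and 1 of 4, without Gdf15 in the control and Ccng1 in the case library. Of the autophagy and lysosome genes, also listed afterwards, 1 of 9 and 5 of 10 were higher and none lower, the former share being near that of all genes. The 5 include Ctsl, whose log2 ratio of 1.14 was 0.18 without cells carrying markers of other types. Higher in both libraries was the protease inhibitor Cstb at 619 against 343 and 1005 against 509 CPM.

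The gene furthest below Notch1-zero cells in both libraries was Fos, one of the immediate early genes, which are switched on within minutes of many stimuli, tissue dissociation among them. Fos (ENSRNOG00000008015) was at 1141 CPM in control members against 3092 in Notch1-zero cells, and at 1333 against 2779.9 in case cells. Its log2 ratio was -1.44 (-1.52 to -1.36) and -1.06 (-1.14 to -0.99). Of 13 immediate early genes with enough counts, 8 were past 1.5-fold lower in the control library and 6 in the case library, where 2.42% and 1.76% of all genes were lower. None was past it upward in the control library, and Jund alone was in the case library, a call lost under TMM scaling. Their median log2 ratios were -0.63 and -0.51. Egr1 was at 1679 against 2744 and 1956 against 3127 CPM, Btg2 at 965 against 1728 and 914 against 1532, and Nr4a1 at 290.1 against 510.4 and 286 against 507. Jun stayed within 1.5-fold, with 1358 against 1828 and 1409.8 against 1638 CPM.

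The remaining genes lower in both libraries included matrix and signalling genes. Mgp, matrix Gla protein, an inhibitor of calcification, was at 1974 against 3097 CPM in control and 1407 against 2285 in case cells. Of the control comparison cells 46.6% had 3 or more Spp1 UMIs, which no member has, and without such cells the log2 ratio of Mgp was -0.53 in the control library, within 1.5-fold, and -0.62 in the case library. Postn, periostin of the matrix, was past 1.5-fold lower in both libraries with -0.67 and -0.70, and within it in both without such cells, with -0.30 and -0.38. Its direction turned in the control library, to 0.21, with members taken whatever their Spp1. Id1, a target of BMP signalling, was at 408 against 637 and 209 against 354. Ccn1, a matricellular protein, was at 269 against 552 and 181 against 293. Lmcd1, a LIM-domain cofactor, was at 335 against 642 and 235 against 446, and Rrad, a small GTPase that restrains calcium channels, at 428 against 773 and 248 against 432. Vcam1, a leukocyte adhesion molecule, was the gene with the second largest fold below Notch1-zero cells in the control library, at 65.0 against 164 CPM, and was at 47.7 against 105 CPM in the case library, below the limit.

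Of the Notch pathway, the summed level of the 6 targets was lower in members, with log2 ratios of -0.76 (-0.87 to -0.65) in the control and -0.42 (-0.54 to -0.31) in the case library. Hes1 carried this sum, and the other 5 targets had 0.18 (-0.04 to 0.38) and 0.33 (0.15 to 0.50), a split made after seeing the values. The sums of the other groups lay above 0. Processing and cofactor genes had 0.39 (0.28 to 0.50) and 0.36 (0.26 to 0.46), the 3 other receptors 0.22 (-0.14 to 0.56) and 0.48 (0.16 to 0.78), and the 5 ligands 0.21 (-0.06 to 0.47) and 0.39 (0.12 to 0.64). TMM scaling takes 0.14 and 0.11 off each of these. Hes1 (ENSRNOG00000001720), the best known target, was lower in the Notch1-positive cells, at 452 against 918 CPM in the control library and 285 against 523 in the case library. Its log2 ratio was -1.02 (-1.15 to -0.89) and -0.87 (-1.04 to -0.71), and stayed below 0 in all 17 alternatives. Hey2, a target known from arterial cells, was at 153 against 143 CPM and 228 against 172, within 1.5-fold, and lay above 0 in 13 of 17 alternatives in the control library and in all 17 in the case library. Heyl stood at 28.6 against 21.8 and 22.5 against 26.0 CPM, Nrarp at 9.53 against 4.55 and 5.199 against 5.611, and Hey1 on 1 and 2 UMIs. Hes5 had no UMI in members of either library.

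Other receptors and the ligands lay under 100 CPM, so that counts were small. Notch2 was at 61.5 CPM in control members and 68.5 in case members, against 48.7 and 51.7 in Notch1-zero cells. Notch3 was low, at 6.93 and 18.2 CPM in members and 9.67 and 11.6 in Notch1-zero cells. The ligand Jag1 was at 95.3 against 77.7 and 97.0 against 70.8 CPM. The interval of the log2 ratio included 0 for Notch2 and Jag1 in the control library but not in the case library, where it ran from 0.04 to 0.75 and from 0.15 to 0.75. Under TMM scaling that of Notch2 included 0 there as well. Rbpj, the DNA-binding partner, was at 57.2 against 47.1 and 52.9 against 56.8 CPM.

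Of 25 processing and cofactor genes, 22 were in the table and 2 reached 100 CPM in each library. Spen, which binds RBPJ in its repressing state, was at 151 against 84.6 CPM in the control library and 143 against 97.8 in the case library, past 1.5-fold in the control library alone. The proteases Adam10 and Adam17 make the first cut that follows ligand contact. In control members they were at 14.7 and 59.8 CPM against 13.8 and 48.5. In case members they were at 14.7 and 45.9 CPM against 15.7 and 50.0.

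The promoters of the Hes1 and Hey2 genes are shown because they are the Notch targets with enough counts. Each run holds the 250 bases before the RefSeq start on the gene's strand, in build GRCr8, while the counts were made on Rnor_6.0. Capitals mark the CSL core TGGGAA on either strand. It occurs 123 and 109 bases before the start of Hes1 (chr11:84213046-84213295, minus strand) and 175 and 60 bases before that of Hey2 (chr1:28640850-28641099, plus strand).
Hes1: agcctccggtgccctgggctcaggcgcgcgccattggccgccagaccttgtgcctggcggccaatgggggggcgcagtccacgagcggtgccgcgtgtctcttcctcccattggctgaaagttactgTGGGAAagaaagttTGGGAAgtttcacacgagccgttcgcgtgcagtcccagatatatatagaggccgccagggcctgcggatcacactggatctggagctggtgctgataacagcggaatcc
Hey2: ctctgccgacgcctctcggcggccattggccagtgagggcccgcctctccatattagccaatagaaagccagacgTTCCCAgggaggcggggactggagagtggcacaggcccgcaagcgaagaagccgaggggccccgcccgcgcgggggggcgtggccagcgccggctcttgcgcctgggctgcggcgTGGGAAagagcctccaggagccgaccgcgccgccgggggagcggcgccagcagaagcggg
Of 33469 promoters 22.1% held this core. Counted by gene, with a match in any of its promoters, 4 of the 24 genes higher in both libraries with a promoter held it. Of 11 such genes lower in both, 4 did.

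No promoter sequence was available for Hmox1 or Ftl1. The promoters of Cstb and Zfand2a are shown for the core of the antioxidant response element, TGACNNNGC, again on either strand. Both are examples chosen from the 6 genes higher in both libraries that held this core. It lies 94 and 29 bases before the start of Cstb (chr20:10247200-10247449, minus strand) and 244 bases before that of Zfand2a (chr12:20275200-20275449, plus strand).
Cstb: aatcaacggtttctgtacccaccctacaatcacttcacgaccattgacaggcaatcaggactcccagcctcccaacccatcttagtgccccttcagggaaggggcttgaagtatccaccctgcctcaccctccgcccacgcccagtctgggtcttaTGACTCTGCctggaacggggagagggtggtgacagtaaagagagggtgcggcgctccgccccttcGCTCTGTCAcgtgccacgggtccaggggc
Zfand2a: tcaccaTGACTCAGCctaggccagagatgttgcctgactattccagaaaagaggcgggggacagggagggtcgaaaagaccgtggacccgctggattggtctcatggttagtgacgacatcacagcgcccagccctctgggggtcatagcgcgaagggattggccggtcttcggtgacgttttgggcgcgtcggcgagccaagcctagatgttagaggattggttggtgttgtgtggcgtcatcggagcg
The core was present in 10.1% of all promoters, a share over promoters, while a gene was counted if any of its promoters held it. Of the 35 genes higher in both libraries 24 had a promoter in the table, and 6 of these held it. Of the 15 genes lower in both, 11 had one and 2 held it. A match of letters does not show that a factor binds.

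Of 16 contractile genes outside the rule with enough counts, 13 in the control and 14 in the case library lay below 0, where 46.6% and 46.0% of all genes did, and 1 of 16 in each was past 1.5-fold, Pln in the control and Ppp1r14a in the case library, where 2.42% and 1.76% of all genes were lower. Under TMM scaling Ppp1r14a was past it in both libraries. The medians were -0.21 and -0.30. Ppp1r14a, an inhibitor of myosin phosphatase, was at 955 against 1337 CPM in control and 783 against 1223 in case cells, and Pln, phospholamban, at 317 against 486 and 239 against 306. Lmod1, an actin nucleator of smooth muscle, was at 515 against 698 and 445 against 588. Mylk, the myosin light chain kinase, was at 1396 against 1389 and 969 against 1191 CPM.

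Genes of the synthetic phenotype did not share a direction, with 4 of 11 above 0 in the control library and 4 of 12 in the case library. Of all genes 53.4% and 54.0% lay above 0. Mgp alone was past 1.5-fold in each, downward, where 2.42% and 1.76% of all genes were lower and 8.75% and 6.21% higher. S100a4, a marker of that phenotype, was at 972 against 910.5 CPM in control and 2268 against 1995 in case cells. Nmt1, the N-myristoyltransferase that the study followed, was at 109.99 against 82.5 and 236 against 191. Klf4 was at 1466 against 1701 and 1537 against 1681, and Vim at 3857 against 4589 and 3114 against 3345. These stayed within 1.5-fold in both libraries. Of 11 genes the study names for its smooth muscle clusters 4 had enough counts, and 2 were past 1.5-fold lower in each library, Hes1 and Ccn1, beside 2.42% and 1.76% of all genes. Mt-cyb and Pycard were within it. Ep400, with too few counts for the comparison, was at 104.8 against 86.2 and 78.0 against 91.0 CPM, and Pycard at 194 against 145 and 316 against 322.

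Other broad lists held no gene past 1.5-fold, where 8.75% and 6.21% of all genes were higher and 2.42% and 1.76% lower. None of 66 ribosomal protein genes, 12 mitochondrial genome genes and 7 heat shock genes was past 1.5-fold in either library, nor any of the genes with long mRNAs, of which 8 and 10 had enough counts, save Dync1h1, which passed it downward in the case library under TMM scaling. Of the ribosomal genes 62 in the control and 53 in the case library lay below 0, with medians of -0.11 and -0.08. Of the 12 mitochondrial genes 4 and 11 did, where 46.6% and 46.0% of all genes lay below 0. Of 8 cell cycle genes only Pcna, a DNA clamp also used in repair, reached 100 CPM, at 373 against 343 in the control and 475 against 516 in the case library. Mki67, a marker of dividing cells, had 7 UMIs in the control members and 8 in the case members, and Top2a had none. Mitochondrial genes took a median of 5.80% of UMIs in control members and 5.94% in Notch1-zero cells, and 5.85% and 6.43% in the case library.

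**Figure D2:**
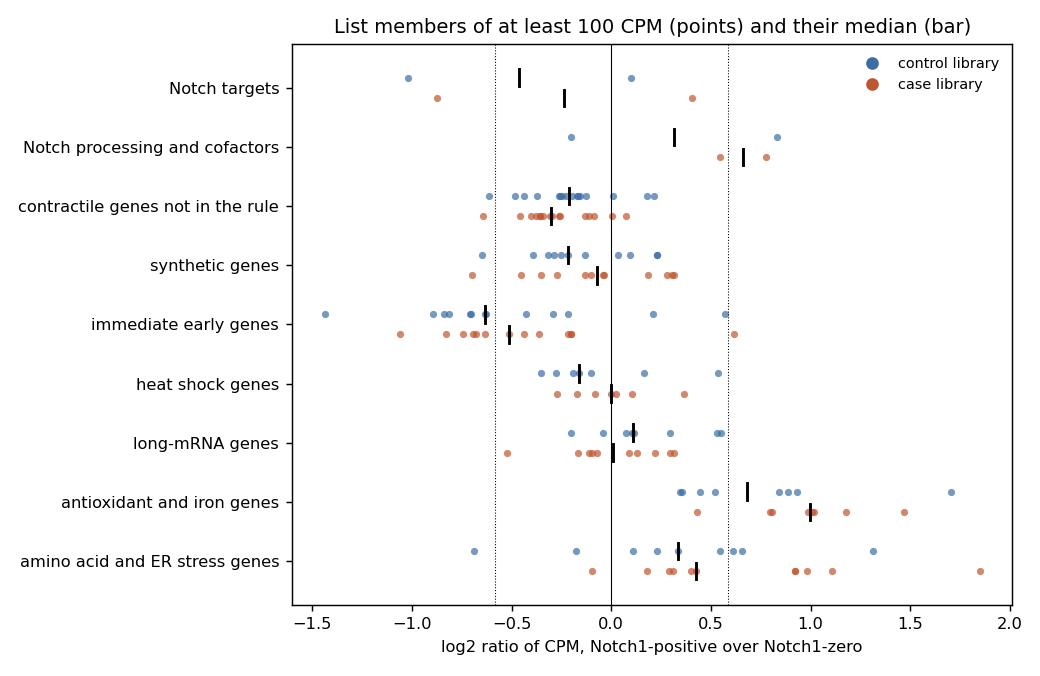
Log2 ratio of CPM between Notch1-positive and Notch1-zero cells for the members of 9 gene lists, 1 point per gene with at least 100 CPM, the control library above the case library, with black bars at the medians and dotted lines at 1.5-fold. Of 13 immediate early genes 11 and 12 lie left of 0, with medians of -0.63 and -0.51 and Jund furthest right, and all antioxidant and iron genes lie right of it with 0.68 and 1.00, and the last 2 lists were drawn up after the values had been seen.

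Hmox1, Fos and Hes1 were also followed over the number of Notch1 UMIs in a cell. Among cells with fewer than 3 Spp1 UMIs, Hmox1 was at 1176 CPM in control cells with 0 Notch1 UMIs, 2427 with 1, 3776 with 2 and 3727 with 3 or more. In the case library it was at 1725, 3215, 4502 and 6283. Cells with 1 Notch1 UMI, outside the members, thus lay between the members and Notch1-zero cells in both libraries. Fos was at 3195, 1704, 1204 and 1094 CPM in the control library and at 2871, 1846, 1626 and 833 in the case library. Hes1 was at 931, 588, 447 and 456 CPM, and at 539, 385, 338 and 195. The step from 2 to 3 or more UMIs lay within the counting intervals for Hmox1 and Hes1 in the control library and outside them in the case library. Myh11, a gene of the rule and so no independent reference, stayed between 4881 and 5292 CPM in control and between 4650.1 and 5215 in case cells. Acta2, also of the rule, went from 2010 CPM at 0 to 1408 at 3 or more Notch1 UMIs in control cells, and from 1022 to 887 in case cells. Outside the rule, Ppp1r14a went from 1378 to 927 and from 1260 to 706 CPM, and Lmod1 from 725 to 501 and from 596 to 427.

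**Figure D3:**
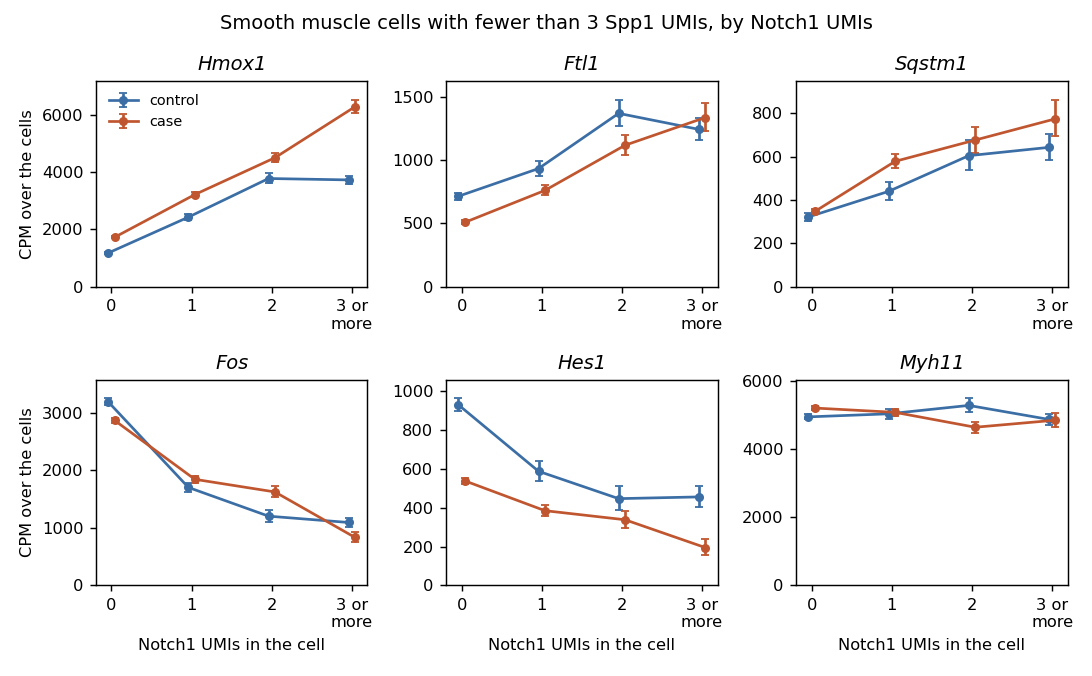
CPM (vertical, from 0) of 6 genes in smooth muscle cells with fewer than 3 Spp1 UMIs, grouped by Notch1 UMIs per cell (horizontal), with exact 95% counting intervals. From 0 to 3 or more Notch1 UMIs Hmox1 goes from 1176 to 3727 in the control and from 1725 to 6283 in the case library, and Fos goes from 3195 to 1094 and from 2871 to 833. Myh11 shows no such order, but it is a gene of the rule and no independent reference.

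The members were not uniform. Per 10000 UMIs of a cell, Hmox1 had a median of 23.5 in control members with quartiles of 5.10 and 61.3, and of 46.5 in case members with quartiles of 12.5 and 81.2. Notch1-zero cells had medians of 2.81 and 5.83. The classes overlapped, since the 5th percentile of members was 0.836 and 1.81, and the 95th percentile of Notch1-zero cells was 60.7 and 80.6. Of the members 83.3% in the control and 88.2% in the case library lay above the Notch1-zero median. Fos had a median of 3.44 in members of each library, against 24.8 and 22.5 in Notch1-zero cells. Ftl1 had medians of 8.99 and 8.47 in members, against 5.74 and 3.80.

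**Figure D4:**
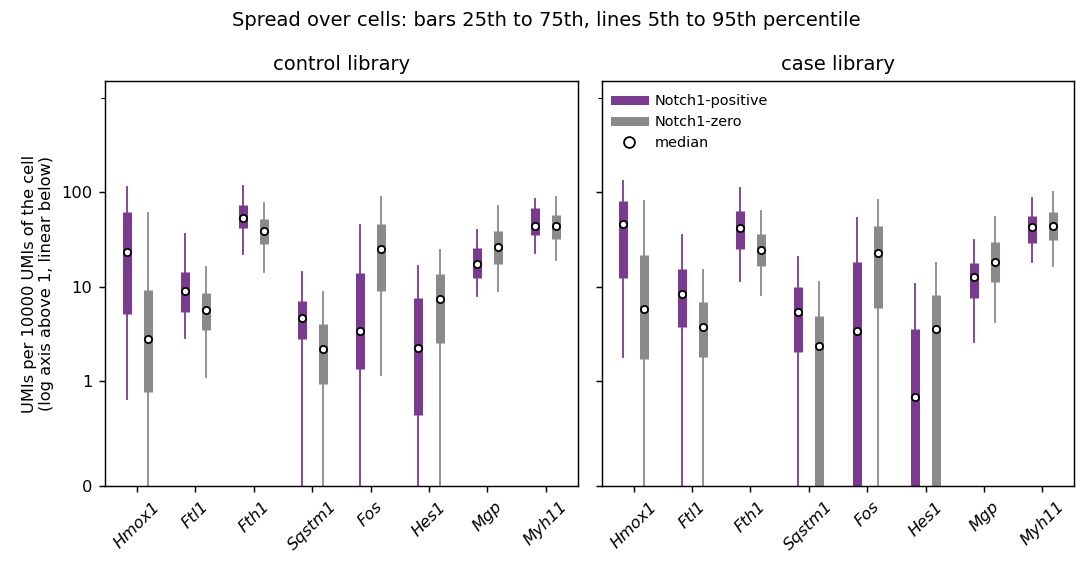
UMIs per 10000 UMIs of a cell (vertical, logarithmic above 1 and linear below) for 8 genes in Notch1-positive and Notch1-zero smooth muscle cells of each library, with circles at the median, thick bars from the 25th to the 75th and thin lines from the 5th to the 95th percentile. Hmox1 medians of 23.5 and 46.5 in members lie above those of 2.81 and 5.83 in Notch1-zero cells with wide overlap. The medians of Myh11, a gene of the rule, lie close together.

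The range of Hmox1 was divided at the level that 10% of Notch1-zero cells passed, 33.0 per 10000 UMIs in the control and 51.2 in the case library. This level was passed by 31 of 78 control members (39.7%) and 72 of 161 case members (44.7%). It is a limit set on a range of values and does not define cell types, and 17 control and 51 case members lay within 1.5-fold of it. Members above and below it had close median depths, of 14932 and 14938 UMIs in the control and 6423 and 6381 in the case library. Their Notch1 levels were 251 and 224 CPM, and 387 and 347.

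Tmem140 lay almost wholly in the members above that level, which held 44 of its 52 UMIs in the control and 63 of its 73 in the case library. Its level was 91.3 CPM above and 11.9 below in the control library, and 125 and 15.4 in the case library. Ftl1 had per-cell medians of 15.9 above and 6.51 below in control members, and 15.0 and 4.64 in case members. Hes1 was at 104 CPM above and 701 below, and at 127 and 407. Fos was at 255 CPM above and 1774 below, and at 397 and 2056.

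The same division of Notch1-zero cells gave a similar picture without any Notch1 UMI. The 60 control and 170 case cells above the level had Tmem140 at 68.5 and 97.9 CPM, Fos at 604 and 539 and Hes1 at 199 and 96.9. The 541 and 1529 cells below it had Tmem140 at 12.9 and 14.2 CPM, Fos at 3393 and 3055 and Hes1 at 1005 and 575. Below the level the members still had less Fos than Notch1-zero cells, 1774 against 3393 CPM in the control and 2056 against 3055 in the case library. Their Tmem140 there was 11.9 against 12.9 and 15.4 against 14.2 CPM, within counting error. Hmox1 itself stayed higher in members below the level, at 1000.02 against 510.3 and 2119 against 1054 CPM.

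**Figure D5:**
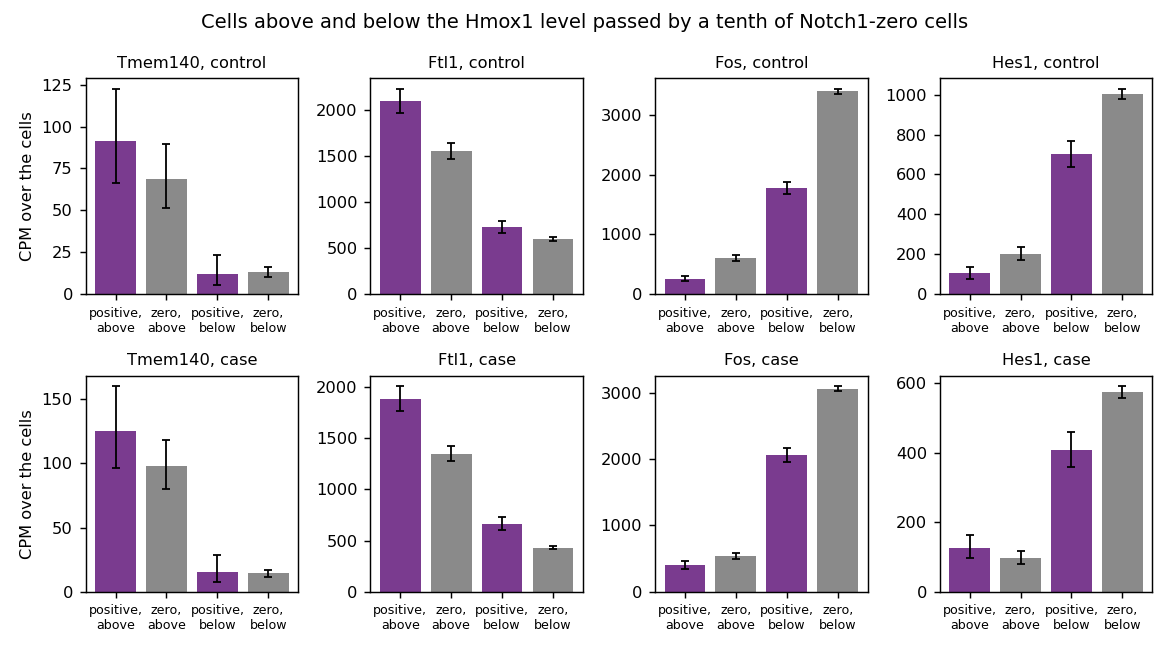
CPM (vertical, from 0) of Tmem140, Ftl1, Fos and Hes1 in Notch1-positive and Notch1-zero smooth muscle cells of the control (top) and case library (bottom), each divided at the Hmox1 level passed by 10% of Notch1-zero cells, with exact 95% counting intervals. Tmem140 is at 91.3 and 68.5 CPM above that level and at 11.9 and 12.9 below it in the control library, so it goes with Hmox1 in both classes, and Fos and Hes1 are lower above the level.

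The same contrast outside the members is set beside them. Among smooth muscle cells with 3 or more Spp1 UMIs, Hmox1 was at 4712 CPM in Notch1-positive and 1122 in Notch1-zero control cells, and at 4891 and 2375 in the case library. Tmem140 was at 79.7 and 18.9, and at 103.6 and 44.4. These Notch1-zero cells are also among the comparison cells of the members. Fibroblast-rule cells share no cell with them. There Hmox1 was higher in all classes, at 7736 CPM in 53 Notch1-positive and 5664 in 602 Notch1-zero control cells, and at 9544 in 91 and 5724 in 1151 case cells. Fos was at 345 against 1740.02 and 355 against 1733, and Hes1 at 216 against 416 and 158 against 384. Of the 35 genes higher in members, 35 in the control and 32 in the case library were also above 0 in fibroblast-rule cells, and 8 and 10 passed 1.5-fold. Of all 1186 genes compared, 674 and 763 lay above 0 there, and 9.78% and 10.2% passed 1.5-fold upward. Of the 15 lower genes, 13 and 12 were below 0 and 10 and 9 passed 1.5-fold, against 512 and 423 of all genes below 0 and 7.93% and 5.23% past 1.5-fold downward. Lmcd1 and Mgp went the other way there in both libraries. Lmcd1 was at 83.0 against 23.2 and 35.6 against 26.1 CPM. Its case value rested on 27 UMIs, with a log2 ratio of 0.45 (-0.19 to 1.04) that includes 0. Mgp was at 3368 against 2643 and 2776 against 2251 CPM. Postn also went the other way in the case library, at 299 against 266 CPM.

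Some of the genes highest in case members came from few cells. Apoe, a lipid carrier made in large amounts by macrophages, was the gene with the largest fold in the case library, at 404 CPM in members against 40.3 in Notch1-zero cells. Of its 466 UMIs 407 lay in 3 members with 20 or more macrophage-marker UMIs, and these held all 50 UMIs of C1qa, a complement gene of macrophages. Of 491 UMIs of the lysosomal protease Ctsl 228 lay in the same 3 cells. Without the 9 case members that had 2 or more UMIs of endothelial, macrophage or T-cell markers, Apoe was at 47.3 CPM and Ctsl at 217. Hmox1 was at 5099.8 CPM without them and Chac1 at 195, so these did not rest on those cells.

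Between the libraries, members of the case group differed from those of the control group at 136 of 1418 genes (9.59%) past 1.5-fold higher and 235 (16.6%) lower, with a median log2 ratio of -0.14. In Notch1-zero cells the median was -0.08, and TMM scaling raised the ratios of members by 0.14. With 1 library per group, injury and library cannot be told apart. The fixed limit of 2 Notch1 UMIs also acted at unlike depths, with member medians of 14935 UMIs in the control and 6381 in the case library. Notch1 was at 236 and 365 CPM in these members, so ratios between them may not compare like cells. Chac1 had the largest ratio, from 20.8 to 185 CPM, a log2 ratio of 3.15 in members and of 1.30 in Notch1-zero cells. Apoe, with 3.11 and -0.10, rested on the few cells named above. Nars went from 168 to 543 CPM, with 1.69 and 1.13, and Cd44, the hyaluronan receptor, from 78.8 to 224 CPM, with 1.504 and 1.316. S100a4 had 1.22 and 1.13 and Nmt1 1.10 and 1.21. Whether the ratios differ between the classes was not tested.

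Genes lower in case members included Pkig, an inhibitor of protein kinase A, with a log2 ratio of -1.52 in members and -1.05 in Notch1-zero cells, and Fbxl22, a muscle F-box protein, with -1.46 and -0.91. Rps2 and Ppia were also among the lowest 10, with -1.48 and -1.40 in members and -1.53 and -1.40 in Notch1-zero cells. Acta2, a gene of the rule, had -0.88 and -0.97. Hes1 was at 452 CPM in control and 285 in case members, a log2 ratio of -0.67, next to -0.81 in Notch1-zero cells. Hmox1 had 0.46 in members and 0.70 in Notch1-zero cells, and Tmem140 0.49 (-0.04 to 1.03) in members. With smooth muscle genes at 2% or more that ratio of Tmem140 was -0.72. In Notch1-zero cells Tmem140 was at 18.9 CPM in the control and 23.4 in the case library. Hey2 had 0.57 and 0.27.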

How the data were processed

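The deposited values are whole-number UMI counts in a matrix of genes and barcodes, made by the authors with 10x Genomics libraries and written by Cell Ranger 3.1.0 per the file headers, with Rnor_6.0 named in the submitters' processing notes. The table held 32623 genes, 3321 control barcodes with 24968329 UMIs and 5656 case barcodes with 28232614 UMIs. Barcodes were assigned to groups by their suffix, matched through the number of barcodes the study gives for each group. No column of values was left without a group. The members and all gene lists were chosen with earlier results of these data known, and 4 lists (antioxidant and iron, amino acid and ER stress, autophagy and lysosome, p53 targets) after these values had been seen.

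UMIs were summed over the cells of a class and given per 1000000. Intervals were exact at the 95% level, conditional binomial for ratios, Clopper-Pearson for shares and Poisson for sums. Ratios were called past 1.5-fold where a gene averaged 100 CPM or more over both classes, without the 12 genes of the rule. With 1 library per group no p-value is given. Named genes were the 10 with the largest rise and fall in each library and between libraries, those past 1.5-fold the same way in both, the genes the study names and members of the lists. Where 1 symbol stood for several genes the first was used in lists.

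The arithmetic of ratios and intervals was tested on simulated data. Summed counts were drawn with Poisson error alone, the model behind the intervals, without the spread between cells. Recovery and coverage were thus largely fixed by design and do not test the intervals on uneven cells. With 200 changed genes, 2-fold up or down, all 200 were recovered past 1.5-fold in the control comparison (1362 genes, 95.8% of intervals covering the true ratio) and in the case comparison (1256 genes, 96.3%). There were 17 alternatives set beforehand and 3 added after seeing the data, not all of which recompute every ratio. The 50 CPM, 200 CPM and 2-fold alternatives change counts of genes only. The 17 that recompute ratios of members over Notch1-zero cells therefore include the 3 added ones. Doublets were left in, and removed in 1 alternative as the highest Scrublet scores, at 0.8% per 1000 barcodes. R 4.3.3 with edgeR 4.0.16 (TMM only), and Python 3.11.15 with scanpy 1.11.5, scipy 1.17.1, matplotlib 3.10.9, pandas 2.3.3 and numpy 2.4.6, were used, with random seed 1.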

Additional observations from a re-analysis of the deposited data

How the results depend on the processing

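No paired analysis was possible because each group had 1 library. Counts of genes past 1.5-fold, given as higher and lower, were 123 and 34 in the control, 81 and 23 in the case and 35 and 15 in both libraries. They moved by more than 1.5 times as follows. TMM scaling gave 59 and 66, 53 and 50, and 18 and 25. Thinning to 2000 UMIs gave 202 and 55 in the control and 148 and 52 in the case library. With genes from 50 CPM they were 265 and 78, 197 and 55, and 87 higher in both. From 200 CPM 46, 29 and 19 genes were higher in the control, case and both. At 2-fold they were 15 and 4, 13 and 1, and 3 and 1. With 1 Notch1 UMI enough, they were 68 and 13, 29 and 2, and 17 and 2, and with at least 3 required 168 and 55 in the case library and 65 higher in both. With smooth muscle genes at 2% or more, 9 were lower in both. With comparison cells under 3 Spp1 UMIs matched on depth, an alternative added after seeing the data, 74 were higher in the control and 37 lower in the case library.

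The log2 ratio of Tmem140, 1.25 in the control and 1.44 in the case library, rested on 52 and 73 UMIs. It was 0.19 in the control library after thinning and 1.83 with members taken whatever their Spp1, which was also added after seeing the data. In the case library it was 1.84 with comparison cells under 3 Spp1 UMIs, 1.86 with depth-matched ones, 3.01 with both, and 0.77 with smooth muscle genes at 2% or more. Its ratio of case over control in members was -0.72 at that 2% limit, against 0.49. The share of members was 1.73% in the control and 1.91% in the case library after thinning, on 17 and 45 cells of 1 random draw with overlapping intervals, and 5.40% in the case library at the 2% limit.

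Some genes changed direction. Ctsl was at -0.019 in the case library at the 2% limit, and its case over control ratio was -0.47 there and -0.063 without cells carrying markers of other types. Apoe had a case over control ratio of -0.0032 without those cells. Postn was at 0.21 in the control library with members taken whatever their Spp1. Of the 466 Apoe UMIs in case members 407 lay in 3 cells that this alternative removes. In the other cases the cause was not tested. With comparison cells under 3 Spp1 UMIs, Postn in both libraries and Mgp in the control library were no longer past 1.5-fold. Hmox1, Ftl1, Sqstm1, Fos and Hes1 kept their direction between members and Notch1-zero cells in each library in all 17 alternatives that recompute ratios. Of these 17, 3 were added after seeing the data. The low counts of Notch receptors and ligands limit what can be seen of them at this depth.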
